A study of Rattus norvegicus with 9 samples.

Results

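The endothelial genes described here are 41 genes whose products mark or serve the cells lining blood vessels, measured by RNA-seq in the left ventricle of rats. They were taken from a list of 41 gene symbols. Transcript lines with the same gene name were summed, and a gene was kept where its mean over the 9 libraries was at least 1 CPM, a count scaled to the library total. All 41 of the 41 listed genes met that minimum, out of 22608 gene names in the tables and 13704 with a mean of at least 1 CPM, and the 41 genes came from 92 transcript lines. The rats were Sprague-Dawley, aged 8 weeks at the start and sampled after 28 days. One group received saline, one received angiotensin II (Ang II), a peptide hormone that constricts vessels and raises blood pressure, and one received Ang II with sodium butyrate (NaBu), which blocks histone deacetylases. Each group had 3 libraries. The labels give no dose, no route and no genotype, and a group with sodium butyrate alone was not analysed here, so both Ang II groups share the hormone. The study set out to compare myocardial fibrosis under Ang II with and without butyrate.

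Endothelial cells line every vessel of the heart, from the capillaries beside each muscle fibre to the arteries, veins, lymphatics and the endocardium of the chambers. They hold together through junction proteins such as VE-cadherin, the product of Cdh5, and respond to vascular endothelial growth factors (VEGF) and angiopoietins through receptor kinases. They also make nitric oxide and endothelin, which set the tone of the surrounding muscle, and hand fatty acids from the blood to cardiomyocytes. Notch signalling between neighbouring endothelial cells separates arterial from venous identity, and transcription factors of the ETS, SOX and KLF families keep the endothelial programme on.

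The libraries held between 29284780 and 49865446 estimated counts, of which ribosomal RNA took 7.99% to 18.81%. Saline and Ang II libraries carry replicate numbers 1 to 3, and the NaBu libraries are called 2, 4 and 6 after their column names. The labels do not say whether libraries of a group came from different animals, so p-values measure only the spread between these libraries. Levels below are CPM on library totals scaled by the trimmed mean of M-values (TMM), as mean ± SD with n = 3. Of the labelled tissue, 8 cardiomyocyte marker genes summed to 115588 to 160219 CPM. Saline replicate 2 stood apart: 5 atrial markers summed to 5634 CPM there, against 256.7 CPM in saline replicate 3 and 24.5 to 83.4 CPM in the other 7 libraries. In whole ventricle, fewer endothelial cells and less RNA per endothelial cell cannot be told apart.

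The sequences before the start sites of the members with the largest differences are shown so that these upstream regions can be seen beside the RNA levels. RefSeq's promoter table for the rat build GRCr8 held 23 of the 41 members, matched by symbol, in 25 windows. It held 4 of the 5 members with the largest differences between the NaBu and the Ang II libraries, and each sequence is the 250 bases before an annotated start, 5′ to 3′. Egfl7, which encodes a protein that endothelial cells secrete into the matrix around growing vessels, has 2 windows. Capitals mark matches to the letters CACCC, the core of KLF sites, or their reverse complement GGGTG; matches to the letters of the other families searched would be in capitals too, and these windows held none.
Egfl7, upstream window (chr3:29805381-29805630, plus strand): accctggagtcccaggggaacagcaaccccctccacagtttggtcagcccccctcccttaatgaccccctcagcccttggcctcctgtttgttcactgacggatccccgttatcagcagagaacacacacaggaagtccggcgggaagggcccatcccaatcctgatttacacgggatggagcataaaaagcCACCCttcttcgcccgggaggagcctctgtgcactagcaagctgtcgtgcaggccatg
Egfl7, downstream window (chr3:29808051-29808300, plus strand): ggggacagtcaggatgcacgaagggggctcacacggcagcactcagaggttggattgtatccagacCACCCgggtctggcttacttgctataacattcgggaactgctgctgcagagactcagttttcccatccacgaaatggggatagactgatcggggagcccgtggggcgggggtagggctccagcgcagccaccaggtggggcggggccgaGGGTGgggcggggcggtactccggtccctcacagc
Notch4 (chr20:4189073-4189322, minus strand): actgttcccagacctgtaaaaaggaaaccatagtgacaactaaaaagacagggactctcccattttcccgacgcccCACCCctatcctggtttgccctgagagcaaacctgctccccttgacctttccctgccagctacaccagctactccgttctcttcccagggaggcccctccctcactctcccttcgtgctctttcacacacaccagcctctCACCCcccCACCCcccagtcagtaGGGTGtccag
Cldn5 (chr11:95718599-95718848, minus strand): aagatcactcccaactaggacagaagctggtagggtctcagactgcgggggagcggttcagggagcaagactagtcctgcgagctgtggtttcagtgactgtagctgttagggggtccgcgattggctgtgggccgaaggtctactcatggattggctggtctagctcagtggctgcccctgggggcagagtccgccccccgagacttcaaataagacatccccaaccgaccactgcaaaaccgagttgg
Tal1 (chr5:133824214-133824463, plus strand): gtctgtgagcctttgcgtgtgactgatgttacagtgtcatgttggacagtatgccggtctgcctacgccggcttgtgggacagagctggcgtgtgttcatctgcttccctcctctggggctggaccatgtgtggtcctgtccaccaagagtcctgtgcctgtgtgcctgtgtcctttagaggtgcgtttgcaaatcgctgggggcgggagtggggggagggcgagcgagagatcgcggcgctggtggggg
The Egfl7 windows held 1 and 2 CACCC matches and the Notch4 window held 4, whereas those of Cldn5 and Tal1 held none. Of the 25 member windows, 17 (68.0%) held CACCC on either strand, against 49.2% of the 33469 windows in the table. CCGGAA, the letters of some ETS sites only, was in 1 member window (4.0%, that of Kdr) against 12.6% of all windows. AACAAT, for SOX factors, was in 4 (16.0%) against 10.3%, and AGATAA, for GATA factors, in 2 (8.0%) against 10.3%. A match is only a run of letters in these windows, and its absence says nothing of the factor. Other forms of the sites of these families were not searched.

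The Egfl7 gene also carries a microRNA of endothelial cells. RefSeq places the mature rno-miR-126a-3p inside the Egfl7 span on the plus strand at chr3:29813219-29813240 (GRCr8), and its sequence is printed with the seed, bases 2 to 8, in capitals.
rno-miR-126a-3p: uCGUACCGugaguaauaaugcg
The level of the microRNA itself was not analysed here.

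By the median over members, the endothelial genes were lowest in the libraries with sodium butyrate. No member had its highest level in a NaBu library, 25 were highest in an Ang II library and 16 in a saline library. Conversely, 26 members were lowest in a NaBu library, 12 in a saline library and 3 in an Ang II library. The same counts were not made over all genes. Within groups the libraries were uneven: 19 members were highest in Ang II replicate 1, and 15 were lowest in NaBu 4. Across members, the median log2 ratio to the mean of the 9 libraries was 0.25 in Ang II replicate 1, 0.13 in replicate 3 and 0.01 in replicate 2. In NaBu 2, 4 and 6 it was -0.05, -0.17 and -0.13, and in saline replicates 1, 2 and 3 it was 0.07, -0.01 and -0.01. The members' summed level did not separate these groups: it was 5351 CPM in NaBu 2 and 5242 CPM in saline replicate 3.

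**Figure D1:**
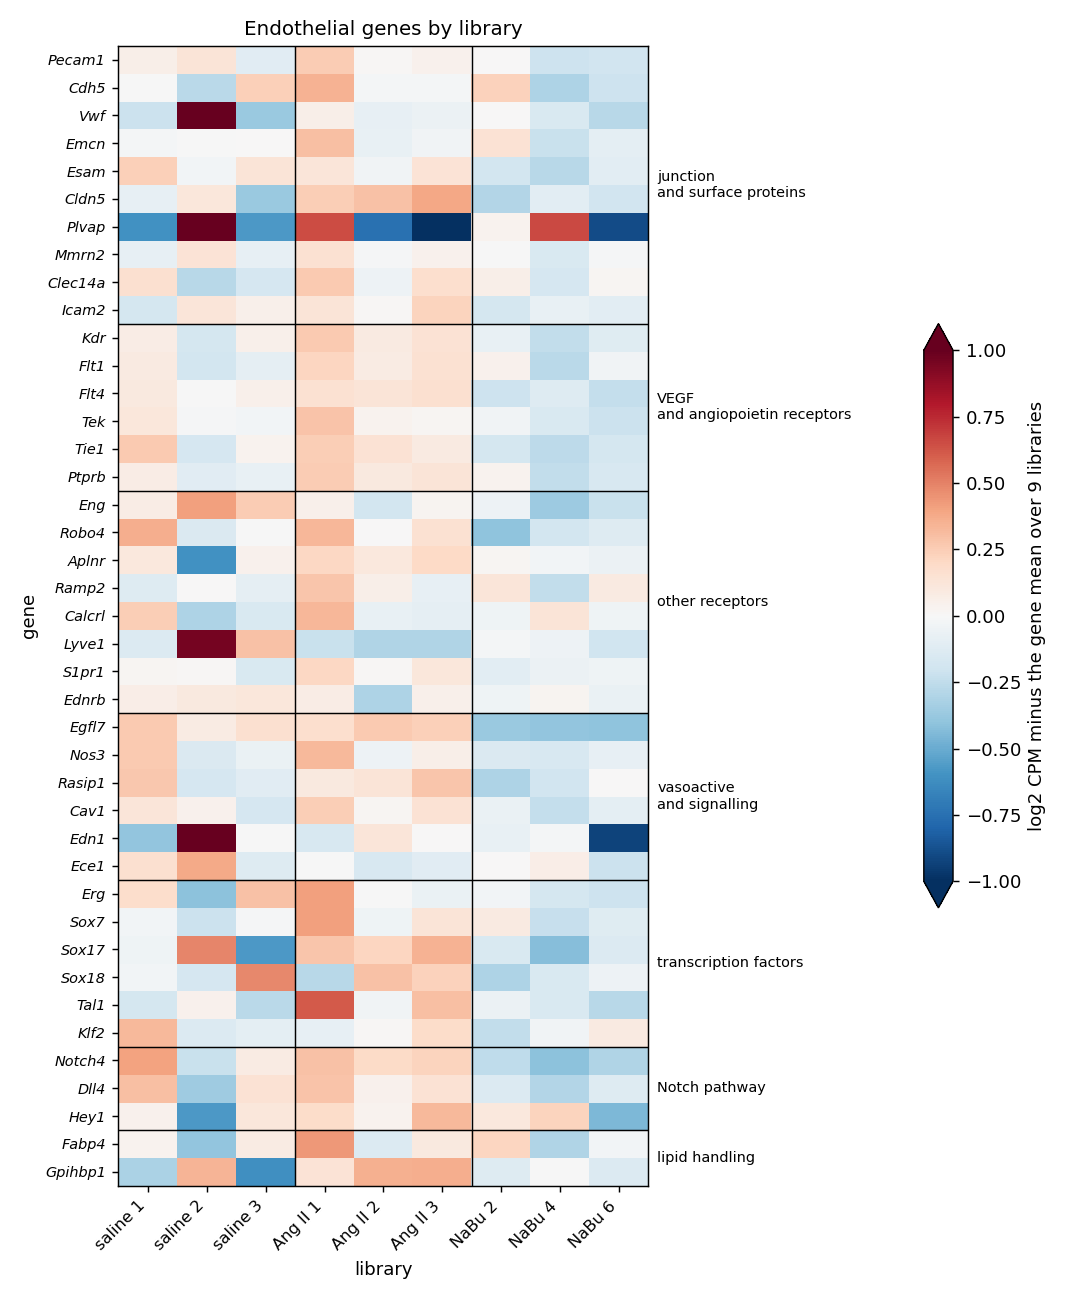
Colour gives the log2 CPM of each of the 41 endothelial genes minus that gene's mean over the 9 libraries, with genes in rows by role and libraries in columns by group. The NaBu columns are mostly blue, Ang II replicate 1 is mostly red, and Plvap, Vwf, Edn1 and Lyve1 are darkest in saline replicate 2.

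Setting the NaBu libraries against the Ang II libraries asks which genes differed when butyrate was added to the hormone. Of the 41 members, 37 had a lower mean level with NaBu and 4 a higher one (Lyve1, Plvap, Ece1 and Ednrb). Over all 15467 genes tested, 52.7% had a log2 difference below 0. The median log2 difference of the members was -0.25, against -0.02 over all genes. In 22 members every NaBu library was below every Ang II library, where 17.5% of all genes showed that order, and in 1 member (Lyve1) every NaBu library was above, where 18.1% of all genes did. By edgeR's quasi-likelihood test with Benjamini-Hochberg adjustment over all genes, called at an adjusted p under 0.05, 1 member fell and none rose. Over all genes 0.957% fell (148 genes) and 0.647% rose (100 genes). At an unadjusted p under 0.05, 16 members were lower, where 11.1% of all genes were lower and 11.3% higher. Ang II replicate 1 weighed on these values: without it the median was -0.16 and 34 members were lower. Without that library or NaBu 6, 2 members rather than 1 were higher in every NaBu library, where 22.2% and 20.7% of all genes were. No member was called without any 1 of the Ang II or NaBu libraries, whereas DESeq2 called 6 and edgeR without saline replicate 2 called 5.

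**Figure D2:**
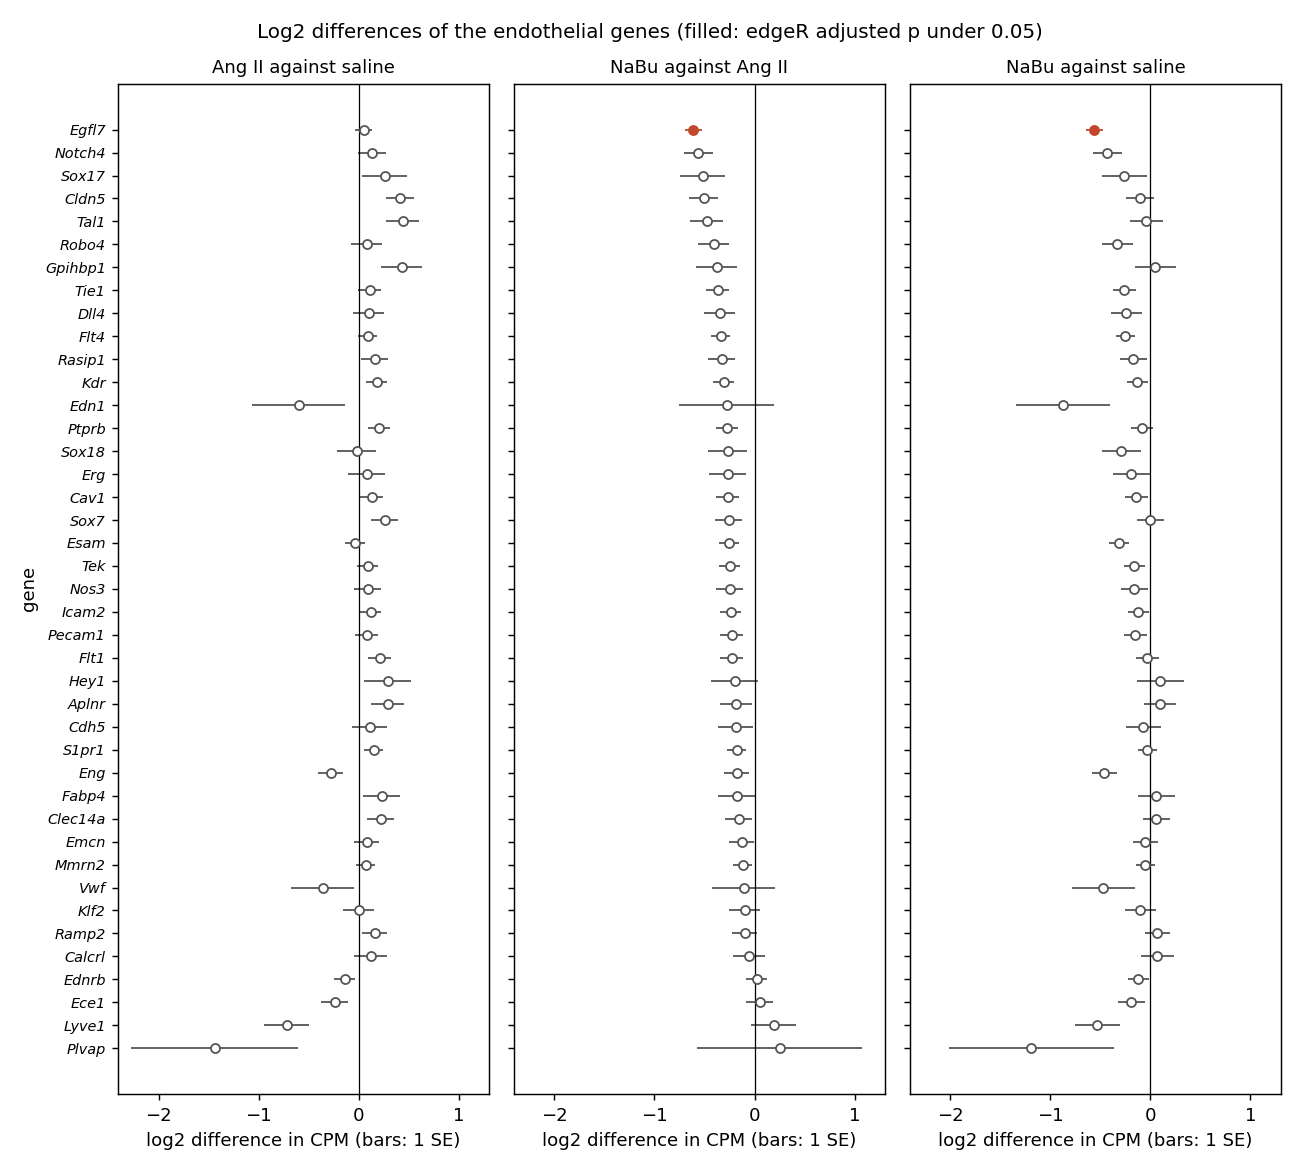
Each point is the log2 difference of 1 endothelial gene in 1 of 3 comparisons, with a bar of 1 SE on each side, and genes are ordered by their difference between NaBu and Ang II. Egfl7, the filled point, lies at -0.61 against Ang II and -0.56 against saline, while Plvap, Vwf, Edn1 and Lyve1 lie to the left in both comparisons with saline.

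Egfl7 was the member that fell. Its level was 98.0, 104.3 and 102.8 CPM in the Ang II libraries, 67.3, 66.2 and 66.0 CPM with NaBu, and 104.4, 92.4 and 97.5 CPM with saline. The NaBu libraries lay close together and below all 6 others, while saline and Ang II overlapped. From 101.7 ± 3.3 CPM with Ang II the level went to 66.5 ± 0.728 CPM with NaBu (log2 difference -0.61, SE 0.0842, edgeR adjusted p = 0.0296), which is 1.53-fold lower. The sign was negative in all 19 alternative settings, with log2 differences from -0.72 to -0.57. The call held in 11 of the 19, with adjusted p from 6.61e-08 to 0.159. It was lost without any 1 of the Ang II or NaBu libraries, with scaling by library totals only, and when only the most abundant transcript of each gene was counted.

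The genes of the VEGF and angiopoietin receptor systems were lower with NaBu without exception. Kdr and Flt1 encode the main VEGF receptors of blood vessels and Flt4 that of lymphatics, Tek encodes the angiopoietin receptor and Tie1 its partner, and Ptprb encodes a phosphatase that restrains Tek. In all 6 every NaBu library was below every Ang II library, with a median log2 difference of -0.30, though none was called. For these and the groups of members below, the share of all genes in that order was 17.5%. Flt4 was at 23.1, 22.7 and 23.2 CPM with Ang II and at 18.0, 19.0 and 17.6 CPM with NaBu (log2 difference -0.34, SE 0.092, edgeR adjusted p = 0.0826). Tie1 was at 141.9, 132.0 and 127.3 CPM with Ang II and at 105.7, 99.6 and 106.0 CPM with NaBu (log2 difference -0.37, SE 0.114, adjusted p = 0.108). Kdr was at 451.3, 400.6 and 415.6 CPM against 356.4, 317.4 and 345.9 CPM (log2 difference -0.31, SE 0.106, adjusted p = 0.126). For these 3 genes the saline libraries lay between or across the other groups: 20.8 to 22.3 CPM for Flt4, 106.4 to 143.2 CPM for Tie1 and 332.2 to 395.2 CPM for Kdr. Ptprb and Tek differed by -0.28 and -0.25 on the log2 scale (adjusted p = 0.181 and 0.193), and Tek by -0.15 without Ang II replicate 1. Flt1 went from 445.4 ± 20.0 CPM with Ang II to 378.7 ± 41.3 CPM with NaBu.

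The Notch pathway had 3 members, and all 3 were lower on average with NaBu. Notch4 encodes a receptor largely limited to endothelium, Dll4 its arterial ligand and Hey1 a transcriptional repressor that Notch induces. Notch4 was at 114.8, 107.1 and 109.0 CPM with Ang II, at 78.4, 70.6 and 76.0 CPM with NaBu, and at 123.6, 80.1 and 99.4 CPM with saline. Every NaBu library was below all 6 others. The log2 difference from Ang II was -0.56 (SE 0.141, edgeR adjusted p = 0.0725) and missed the threshold, and 4 of the 19 alternatives called it. Dll4 was at 68.9, 58.0 and 62.5 CPM with Ang II and at 51.2, 46.1 and 51.5 CPM with NaBu, also without overlap (log2 difference -0.35, adjusted p = 0.216). Hey1 ran from 6.45 to 7.88 CPM with Ang II and from 4.60 to 7.36 CPM with NaBu, which overlap.

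**Figure D3:**
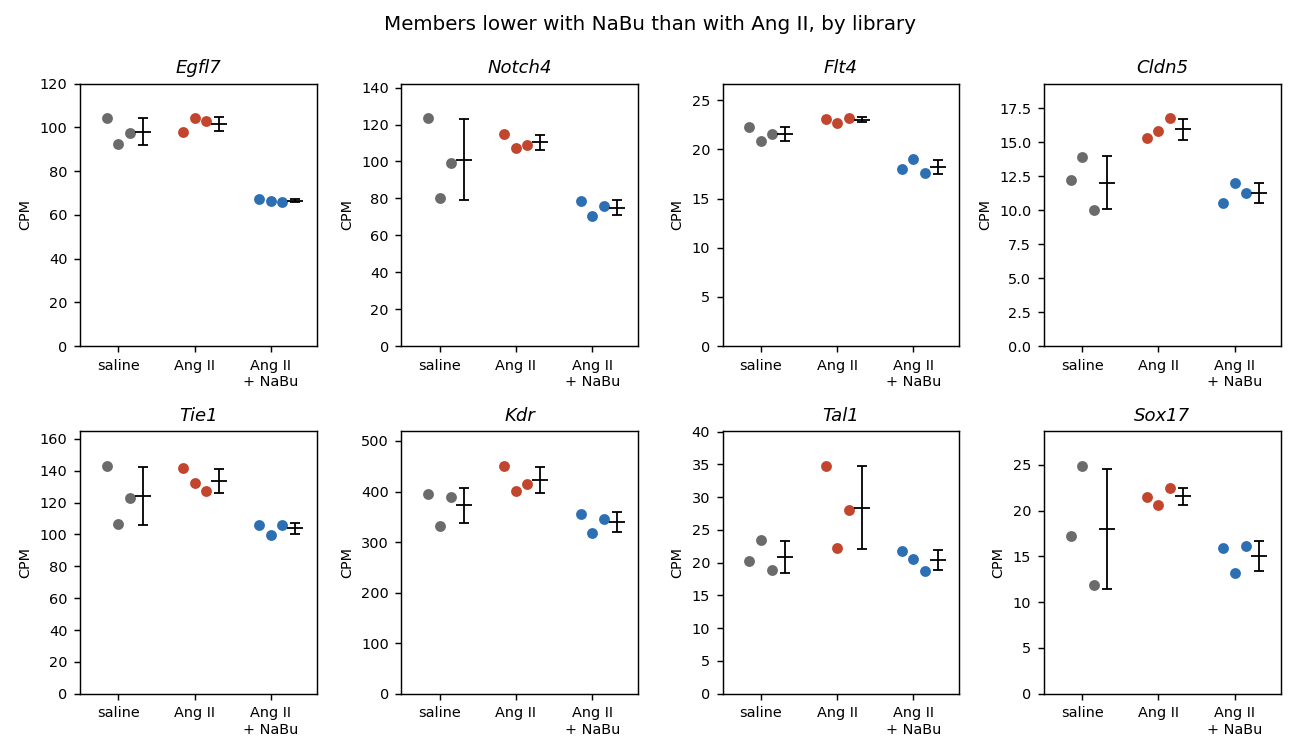
CPM of 8 endothelial genes in each library, with axes starting at 0, points for libraries and a black bar for the mean with 1 SD (n = 3). In each panel the 3 NaBu points lie below the 3 Ang II points, and for Egfl7, Notch4, Flt4 and Tie1 below the saline points too.

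Among 10 junction and surface proteins, 9 were lower on average with NaBu than with Ang II and 4 in every library (Cldn5, Esam, Icam2 and Pecam1). Cldn5, which encodes the claudin that seals endothelial tight junctions, was at 15.3, 15.8 and 16.8 CPM with Ang II and at 10.5, 12.0 and 11.3 CPM with NaBu. Its log2 difference was -0.51 (SE 0.14, edgeR adjusted p = 0.0841), and 5 of the 19 alternatives called it. The saline libraries, at 12.2, 13.9 and 9.98 CPM, overlapped with the NaBu libraries and were below the Ang II libraries. Esam, an adhesion molecule of the same junctions, was at 62.2, 56.1 and 63.0 CPM with Ang II and at 50.4, 47.3 and 53.3 CPM with NaBu (log2 difference -0.26, adjusted p = 0.162). Icam2, a ligand for leukocyte integrins, differed by -0.24 (adjusted p = 0.207). Pecam1, the adhesion receptor CD31, ran from 172.6 to 204.4 CPM with Ang II and from 148.6 to 171.9 CPM with NaBu. Cdh5 was at 283.0, 219.9 and 220.3 CPM with Ang II and at 262.0, 180.3 and 193.3 CPM with NaBu, so these groups overlapped. Clec14a, Emcn, Mmrn2 and Vwf also overlapped between these groups, and Plvap, the diaphragm protein of fenestrae, ran from 1.43 to 4.67 CPM with Ang II and from 1.60 to 4.71 CPM with NaBu.

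The vasoactive and signalling group had 6 members, of which 5 were lower on average with NaBu and 4 in every library: Egfl7, Rasip1, Cav1 and Nos3. Rasip1, an effector of Rap1 needed for vessel lumens, was at 44.4, 45.4 and 50.2 CPM with Ang II and at 33.5, 36.3 and 41.5 CPM with NaBu (log2 difference -0.33, edgeR adjusted p = 0.183). Cav1, the coat protein of caveolae, was at 479.6, 409.7 and 446.9 CPM against 385.9, 343.7 and 377.8 CPM (log2 difference -0.27, adjusted p = 0.189). Nos3, the endothelial nitric oxide synthase, was at 97.6, 75.3 and 81.2 CPM with Ang II and at 70.5, 69.6 and 73.5 CPM with NaBu. In saline libraries Nos3 ran from 70.6 to 93.6 CPM, across both. Endothelin 1 (Edn1) was at 1.90 to 2.32 CPM with Ang II and 1.12 to 2.10 CPM with NaBu, and its converting enzyme Ece1 at 149.3 to 165.6 CPM and 143.6 to 174.6 CPM, both overlapping.

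Of 8 other receptors, 6 were lower on average with NaBu and 3 in every library (Robo4, Aplnr and S1pr1). Robo4, a guidance receptor that steadies the endothelial barrier, was at 26.5, 21.1 and 23.4 CPM with Ang II and at 15.9, 18.5 and 19.2 CPM with NaBu (log2 difference -0.41, edgeR adjusted p = 0.158). S1pr1, the sphingosine 1-phosphate receptor, ran from 143.3 to 164.1 CPM with Ang II and from 132.3 to 138.5 CPM with NaBu. Aplnr, the apelin receptor, ran from 151.2 to 162.7 CPM with Ang II and from 135.3 to 142.4 CPM with NaBu, while saline replicate 2 had 92.4 CPM. Lyve1, the hyaluronan receptor of lymphatic endothelium and of some macrophages, went the other way, at 24.6, 23.3 and 23.3 CPM with Ang II and 28.4, 27.7 and 25.0 CPM with NaBu. Calcrl and Ramp2, which together form the adrenomedullin receptor, Ednrb, an endothelin receptor, and Eng, a co-receptor for BMP ligands, overlapped between these groups.

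All 6 transcription factors were lower on average with NaBu, and 2 of them, Sox17 and Tal1, in every library. Sox17, a factor of arterial endothelium, was at 21.5, 20.6 and 22.5 CPM with Ang II and at 15.9, 13.2 and 16.1 CPM with NaBu (log2 difference -0.52, SE 0.221, edgeR adjusted p = 0.204). Its saline libraries spread from 11.9 to 24.9 CPM, wider than both other groups. Tal1, a factor of blood and endothelial progenitors that red cell precursors also express, was at 34.8, 22.2 and 28.1 CPM with Ang II and at 21.8, 20.5 and 18.8 CPM with NaBu (log2 difference -0.48, SE 0.161, adjusted p = 0.125). Without Ang II replicate 1 its log2 difference was -0.30. Erg, Sox7, Sox18 and Klf2 overlapped. Erg, the ETS factor that maintains endothelial identity, was at 59.5 ± 11.1 CPM with Ang II and 49.3 ± 3.33 CPM with NaBu. Klf2, which responds to blood flow, was at 20.9 ± 1.96 and 19.5 ± 2.3 CPM. Both lipid-handling members were lower on average: Gpihbp1, which anchors lipoprotein lipase on capillaries, at 31.0, 36.0 and 36.3 CPM with Ang II and 25.8, 28.1 and 25.6 CPM with NaBu, and the fatty acid carrier Fabp4 at 440.9 ± 89.5 and 390.6 ± 69.2 CPM.

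The members were also set against the other endothelial genes rather than all RNA. The mean log2 level of 8 general endothelial genes (Pecam1, Cdh5, Tie1, Esam, Egfl7, Eng, Kdr and Robo4) was lower with NaBu than with Ang II, a difference of -0.32, while Ang II minus saline was 0.04. These 8 are themselves members, so the ratio is a description. Relative to this mean, 29 of the 41 members overlapped between NaBu and Ang II libraries. Egfl7 (-0.29), Notch4 (-0.24) and Sox17 (-0.20) were lower relative to it in every NaBu library, where 3.49% of all 15467 genes were. Another 9 members were higher relative to it in every NaBu library, where 42.1% of all genes were, among them Lyve1 (0.51), Ece1 (0.37), Ednrb (0.35) and Vwf (0.21). The VEGF receptor genes overlapped between these groups relative to it, with differences of 0.01 for Kdr, which is 1 of the 8, -0.02 for Flt4 and 0.08 for Flt1.

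Ang II and saline libraries differed little in these genes. Relative to saline, 31 members were higher on average with Ang II and 10 lower, with a median log2 difference of 0.11. Over all genes 51.0% were below 0. No member was called, nor was any of the 15467 genes (0% rose and 0% fell by edgeR), while DESeq2 called 57 genes and no member. At an unadjusted p under 0.05 edgeR had 918 genes, 2.44% of all genes higher and 3.49% lower, and 4 members, Cldn5 and Tal1 higher and Lyve1 and Eng lower. In 4 members every Ang II library was above every saline library (Cldn5, Ptprb, Kdr and Flt4), where 4.94% of all genes were, and in 2 (Lyve1 and Eng) every one was below, where 4.97% were. Cldn5 differed by 0.41 (SE 0.14, edgeR adjusted p = 0.743) from the levels given above. Tal1, at 20.2, 23.5 and 18.9 CPM with saline, differed by 0.44 (SE 0.161, adjusted p = 0.751), or by 0.29 without Ang II replicate 1, and the groups overlapped. Red cell markers, whose precursors express Tal1, were higher with Ang II on average in 5 of 5 cases (median log2 difference 0.70, 3 in every library), with sums of 2381 to 4197 against 1751 to 2577 CPM. Lyve1, at 26.1, 55.8 and 35.2 CPM with saline, differed by -0.72 (SE 0.222, adjusted p = 0.743), or by -0.37 without saline replicate 2 (adjusted p = 0.525). Macrophage markers were lower with Ang II in 6 of 6 cases (median -0.37, 2 in every library), with sums of 145.6 to 165.1 against 178.4 to 248.5 CPM. Fibroblast markers were lower in 8 of 8 (median -0.41, 1 in every library), with sums of 2863 to 3027 against 2860 to 4437 CPM. Smooth muscle markers were lower in 5 of 6 (median -0.45), with sums of 458.4 to 560.7 against 363.6 to 983.3 CPM. The highest saline sums of the macrophage, fibroblast and smooth muscle lists were all those of saline replicate 2. In saline replicates 1 and 3 the macrophage sums were 178.4 and 199.3 CPM and the fibroblast sums 2860 and 3444 CPM. The smooth muscle sums there were 363.6 and 527.4 CPM. No gene of these 4 lists was called, and their part in the endothelial values was not tested. Eng was at 196.4, 248.4 and 222.4 CPM with saline and at 193.2, 164.5 and 190.1 CPM with Ang II (log2 difference -0.28, SE 0.123, adjusted p = 0.829). Single libraries decided how many members were higher in every Ang II library: 16 were without saline replicate 1, where 10.5% of all genes were, 14 without Ang II replicate 2, where 9.56% were, and 11 without saline replicate 2, where 11.7% were. The members' median became 0.18 when saline replicate 1 was left out and 0.17 when Ang II replicate 2 was. The Ang II libraries serve both here and against NaBu.

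Several endothelial genes were high in saline replicate 2 alone. These were picked out after their values were seen. Vwf, the clotting factor stored in endothelial granules, was at 742.5 CPM there and at 269.7 to 362.7 CPM in the other 8 libraries. Plvap was at 17.2 CPM against 1.43 to 4.71 CPM, Edn1 at 5.83 against 1.12 to 2.32 CPM, and Lyve1 at 55.8 against 23.3 to 35.2 CPM. The members as a whole were mixed in this library, where 7 were highest and 7 lowest. Among the lowest was Aplnr, at 92.4 CPM against 135.3 to 162.7 CPM elsewhere. The same library held the atrial markers described above, with Nppa, the atrial natriuretic peptide gene, at 3464 CPM. Its 4 endocardial markers summed to 284.9 CPM against 69.8 to 113.5 CPM elsewhere, led by Npr3 at 182.4 CPM and Cytl1 at 60.6 CPM. Of the others, Nfatc1, at 37.4 CPM, was within the 25.1 to 43.7 CPM of the other libraries. Tmem108, at 4.55 CPM, was close to the 4.32 CPM of NaBu 2. The 6 smooth muscle markers summed to 983.3 CPM against 354.7 to 560.7 CPM. The part of these other cells in the endothelial values was not tested. With all libraries, the log2 difference between Ang II and saline was -0.36 for Vwf, -1.44 for Plvap and -0.60 for Edn1. Without saline replicate 2 these became 0.26, 0.39 and 0.18. Without saline replicate 1 Vwf was at -0.57 and Edn1 at -0.91, and without saline replicate 3 Vwf was at -0.61.

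**Figure D4:**
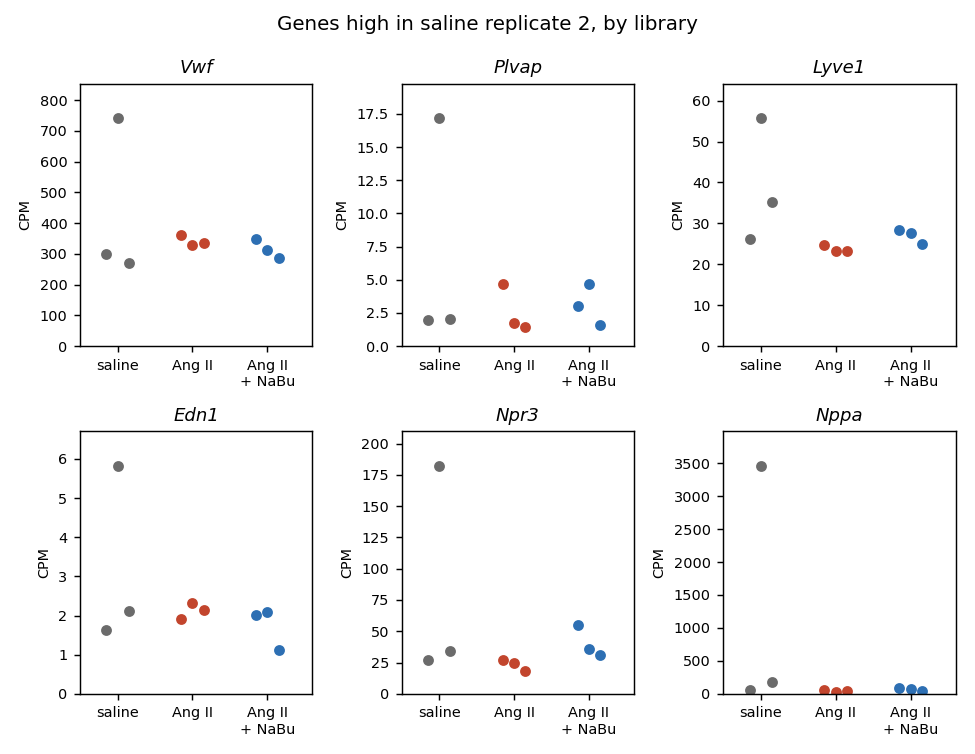
CPM in each library, with axes starting at 0, for 4 endothelial genes, the endocardial marker Npr3 and the atrial marker Nppa. In every panel the highest point is saline replicate 2, and the 2 other saline libraries lie near the other groups except in saline replicate 3, which is at 35.2 CPM for Lyve1 and at 186.0 CPM for Nppa, where the Ang II and NaBu libraries are at 22.9 to 80.6 CPM.

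Relative to saline, the NaBu libraries were also lower for most members. On average 33 members were lower and 8 higher, with a median log2 difference of -0.14, against -0.05 over all genes, of which 55.3% were below 0. In 8 members every NaBu library was below every saline library, where 14.1% of all genes were, and in 0 every one was above, where 14.5% were. At an unadjusted p under 0.05, 7 members were lower, where 12.2% of all genes were lower and 12.4% higher. By edgeR 1 member, Egfl7, fell, while 2.05% of all genes fell and 3.01% rose. Its log2 difference was -0.56 (SE 0.0842, edgeR adjusted p = 0.0149), and 14 of 19 alternatives called it, with adjusted p from 8.54e-07 to 0.1. The call was lost without any 1 of the NaBu libraries and when only the 2 groups compared were fitted. It was also lost when only the most abundant transcript of each gene was counted. Next came Eng, with 180.1, 144.9 and 160.0 CPM in the NaBu libraries, all below the saline libraries (log2 difference -0.46, SE 0.124, adjusted p = 0.0586). Esam (-0.31, adjusted p = 0.0976), Notch4 (-0.43, 0.0982), Flt4 (-0.25, 0.137) and Tie1 (-0.26, 0.197) were below saline in every library as well. Without saline replicate 1, Notch4 was at -0.26 and Tie1 at -0.14. Lyve1 differed by -0.53 (adjusted p = 0.172), but by -0.17 without saline replicate 2 and by 0.05 without saline replicates 2 and 3. Without saline replicate 2, edgeR called Egfl7 and Notch4. The members lower in every NaBu library numbered 14 without saline replicate 2 (17.8% of all genes) and 14 without saline replicate 3 (22.3%). Leaving out any 1 of the Ang II libraries gave 4 such members, with 12.3% to 12.4% of all genes in that order. The median was -0.09 without saline replicate 1 or 2. Markers of other cells differed on average as well. All 6 smooth muscle markers were lower with NaBu than with saline (median log2 difference -0.81, 0 in every library), as were all 8 fibroblast markers (median -0.37, 0 in every library) and 5 of 6 macrophage markers (median -0.32, 3 in every library). Of the cardiomyocyte markers, 6 of 8 were higher (median 0.24, 3 in every library). With NaBu the macrophage markers summed to 151.5 to 174.3 CPM, the fibroblast markers to 2779 to 3263 CPM and the smooth muscle markers to 354.7 to 472.8 CPM. With saline the smooth muscle sum was 983.3 CPM in replicate 2, but 363.6 and 527.4 CPM in replicates 1 and 3. The fibroblast sum was 4437 CPM in saline replicate 2, but 2860 and 3444 CPM in saline replicates 1 and 3. No gene of these 4 lists was called. In other marker lists the pericyte marker Des (log2 difference 0.65) and the red cell marker Slc4a1 (0.67) rose, and the atrial marker Bmp10 fell. The part of all these markers in the endothelial values was not tested.

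The other genes of these pathways are known for making the signals that the members receive or for relaying them onward. In the VEGF and angiopoietin list, 9 of 10 genes were tested and 7 were lower with NaBu than with Ang II on average, none of them called. Vegfa, the main growth factor for Kdr, was at 637.0, 544.0 and 579.7 CPM with Ang II and at 491.9, 432.8 and 481.3 CPM with NaBu (log2 difference -0.32, edgeR adjusted p = 0.292). The angiopoietins lay at the ends of the list: Angpt2, which antagonises Tek, at -0.48 (adjusted p = 0.327), and Angpt1, which activates it, at 0.16 (adjusted p = 0.732; 0.10 without Ang II replicate 1 and 0.26 without replicate 2), both overlapping between groups. In the Notch list 8 of 10 genes were lower on average and 6 in every library, where 17.5% of all genes were. The list's summed level was 585.7 to 639.6 CPM with NaBu, 712.1 to 775.4 CPM with Ang II and 716.2 to 755.7 CPM with saline. Notch1 was at 249.3, 204.4 and 214.7 CPM with Ang II and at 171.0, 163.5 and 170.5 CPM with NaBu (log2 difference -0.40, adjusted p = 0.0841). Notch3, the receptor of smooth muscle and pericytes, differed by -0.34 (adjusted p = 0.0642). Hey2, a Notch-induced repressor that ventricular cardiomyocytes also express, went the other way, at 20.6, 19.1 and 24.5 CPM with NaBu, 12.6, 17.5 and 15.7 CPM with Ang II and 11.7, 11.1 and 13.0 CPM with saline. It rose relative to saline (log2 difference 0.85, SE 0.153, adjusted p = 0.0218), a call lost without any 1 of the NaBu libraries, and its difference from Ang II was 0.49 (adjusted p = 0.107).

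In the endothelin and nitric oxide list 11 of 15 symbols were tested, 7 were lower with NaBu than with Ang II on average and none was called. Ddah1, which degrades an inhibitor of nitric oxide synthase, was higher in every NaBu library, at 50.3, 43.1 and 42.2 CPM against 30.7, 33.7 and 32.9 CPM (log2 difference 0.48, SE 0.112, edgeR adjusted p = 0.0607). Cav2, the caveolin that assembles with Cav1, was lower in every one (-0.32, adjusted p = 0.206). Of 10 tested genes, out of 11 listed, for ligands, accessory proteins and partners of the other receptors, 5 were lower with NaBu than with Ang II, 5 higher and none called. Apln, the ligand of Aplnr, was at 17.6, 16.2 and 18.5 CPM with NaBu and at 10.9, 12.8 and 12.9 CPM with Ang II, while Acvrl1, the kinase receptor that works with Eng, was at 64.6, 59.6 and 63.7 CPM with NaBu and at 95.3, 80.7 and 82.3 CPM with Ang II. Relative to saline, Bmp10, a ligand of Acvrl1 made by atrial muscle, was called as lower with NaBu. That call rests on 645.8 CPM in saline replicate 2 and 22.2 CPM in replicate 3, while the other 7 libraries held at most 0.693 CPM. It was lost without saline replicate 2 (log2 difference -5.65, edgeR adjusted p = 0.0537, against -9.97 with all libraries) and without any 1 of the Ang II or NaBu libraries. In the lipid list 3 of 6 genes were lower with NaBu than with Ang II, 3 higher and none called. Lpl, the lipase that Gpihbp1 holds in place and cardiomyocytes make, was at 2892, 2883 and 3106 CPM with NaBu and at 2085, 2550 and 2466 CPM with Ang II (log2 difference 0.32, adjusted p = 0.268). No gene of these 5 lists other than Hey2 and Bmp10 was called in any of the 3 comparisons.

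Markers of other cells also differed in mean level between the NaBu and Ang II libraries. Of 8 cardiomyocyte markers, 7 were higher on average with NaBu and 6 in every library, where 18.1% of all genes were, none called, with a median log2 difference of 0.27. Their summed level was 146368 to 160219 CPM with NaBu and 129343 to 140209 CPM with Ang II. Of 7 pericyte markers, 6 were lower on average and 3 in every library, where 17.5% of all genes were. The sum of that list went up, from 2662 to 2832 CPM with Ang II to 3377 to 3746 CPM with NaBu, because Des, which muscle also makes, was at 2287 to 2465 CPM against 1302 to 1590 CPM. All 6 smooth muscle markers were lower on average, with sums of 354.7 to 472.8 against 458.4 to 560.7 CPM, and so were 5 of 6 arterial markers, with sums of 309.0 to 366.2 against 399.5 to 462.6 CPM. All 5 red cell markers were lower too, with sums of 2123 to 2705 against 2381 to 4197 CPM, and all 5 platelet markers, with sums of 5.44 to 9.40 against 11.5 to 30.7 CPM. Among all these markers only the platelet integrin gene Itga2b passed the test, and it fell (log2 difference -1.99, edgeR adjusted p = 0.0415). That call was lost without saline replicate 1, Ang II replicate 1 or 3, or any 1 of the NaBu libraries, with adjusted p up to 0.191. Ppbp was at 0 in all 3 NaBu libraries, but near 0 elsewhere too, at 0 to 0.293 CPM with saline and 0.116 to 0.602 CPM with Ang II. Venous markers were lower in 3 of 4 cases and lymphatic markers in 4 of 5, the latter summing to 138.3 to 160.3 CPM with NaBu and 132.0 to 210.8 CPM with Ang II. Endocardial markers were split: Npr3 and Cytl1 were higher in every NaBu library (log2 differences 0.81 and 0.32), and Tmem108 was level (0.0). Nfatc1 was lower in every NaBu library (-0.37, edgeR adjusted p = 0.19). Fibroblast markers (4 of 8 lower) and macrophage markers (3 of 6 lower) were split, and of 5 adipocyte markers 2 were tested, both lower. Among atrial markers 4 of 5 were higher, at sums of 50.1 to 83.4 against 24.5 to 53.2 CPM. The part of these markers in the endothelial values was not tested.

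**Figure D5:**
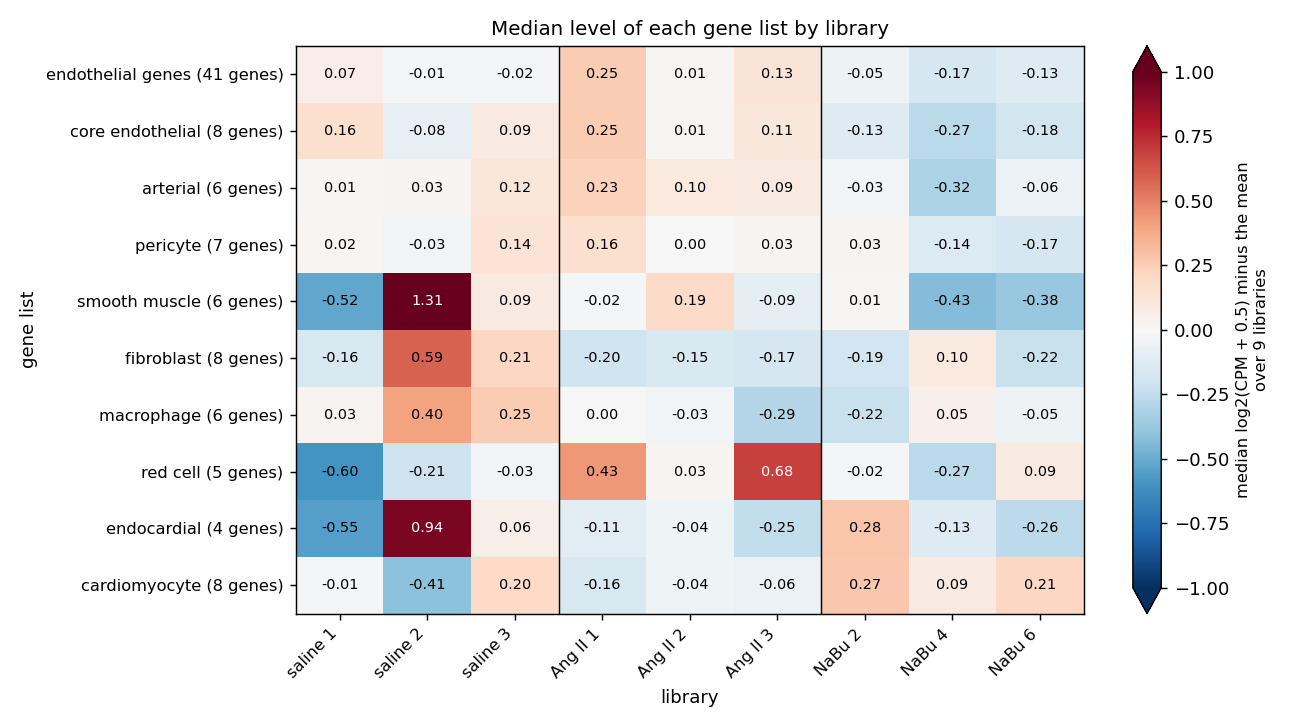
Each cell gives, for 1 gene list in 1 library, the median over the list of log2(CPM + 0.5) minus each gene's mean over the 9 libraries. Endothelial genes are at 0.25 in Ang II replicate 1 and -0.17 in NaBu 4, while the cardiomyocyte list is at 0.27, 0.09 and 0.21 in the 3 NaBu libraries and the smooth muscle list at 1.31 in saline replicate 2.

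The tables split the genes over RefSeq transcripts, and 22 members had more than 1 transcript above 1 CPM. The split was steady for Egfl7: its main transcript took 79.4% of the gene's level with saline, 82.2% with Ang II and 79.7% with NaBu, and was at 79.6, 85.4 and 85.7 CPM with Ang II and 55.5, 52.5 and 51.0 CPM with NaBu. The second Egfl7 transcript was at 16.9, 16.9 and 16.3 CPM with Ang II and 10.8, 12.5 and 13.0 CPM with NaBu, so both were lower in every NaBu library. For Notch4 the main transcript took 88.1%, 86.9% and 87.7% in the saline, Ang II and NaBu groups. Other members were split differently from library to library. One Dll4 transcript was listed at 40.2 and 25.8 CPM in saline replicates 1 and 2 and at 23.2 CPM in Ang II replicate 3 but at 0 in the other 6 libraries, where the other Dll4 transcript took the whole level. Sox17 was spread over 10 transcript lines, and the one with the highest mean went from 15.5, 2.15 and 14.5 CPM with Ang II to 0, 0 and 1.54 CPM with NaBu while the gene's sum varied far less.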

How the data were processed

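Left ventricle RNA from 9 rat samples, 3 per group, was sequenced after Trizol extraction and TruSeq preparation, per the labels' protocols. The authors deposited 3 transcript tables, 1 per group, with estimated counts per transcript. The values of the saline table, listed under another unit name because a stray line break stops automatic reading of it, are expected counts in whole numbers too, as deposited. The submitters' processing notes name Bowtie 0.12.2 and mm8, a mouse build, although the transcript identifiers are rat RefSeq identifiers. The counting tool is not given in the sources used here, and the series' design text describes a tendon experiment that does not match these samples.

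Counts were summed by gene name and tested with edgeR 4.0.16 (limma 3.58.1, R 4.3.3): TMM scaling, filterByExpr, a quasi-likelihood fit over all 9 libraries and Benjamini-Hochberg adjustment over 15467 genes, called at an adjusted p under 0.05. The common biological coefficient of variation was 0.256. DESeq2 1.42.0 was an alternative. The members and all gene lists were chosen with earlier results of these data known. Members with the lowest p in each comparison and all called members were given in every library, and of each pathway list the called genes. The genes at both ends, for NaBu against Ang II, were given for the VEGF and angiopoietin, Notch, and endothelin and nitric oxide lists. Only the upper end, Lpl, was given for the lipid list, and neither end for the list of ligands and partners. Vegfa, Notch3, Acvrl1 and Apln were added after their values were seen, for their roles beside named members.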

Additional observations from a re-analysis of the deposited data

How the results depend on the processing

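Of the 19 alternatives for the comparison of NaBu with Ang II (20 for Ang II with saline), none changed the sign of the members' median, and Egfl7 stayed lower with NaBu in all. Calls depended on the setting. For NaBu against Ang II, 1 member and 248 genes were called. DESeq2 called 6 members and 1521 genes (872 rose, 649 fell), the fit of only the 2 groups 9 and 1802, and the fit without saline replicates 2 and 3 called 8 and 1695. Library totals only gave 0 and 4, and the highest transcript per gene 0 and 5. Upper-quartile scaling gave 87 rises and 209 falls, against 100 and 148. Leaving out 1 library gave 0 to 5 members, 1 to 1482 genes and a median of -0.30 to -0.16. Library totals only moved the median of all genes from -0.025 to -0.133 and that of the members to -0.36. For NaBu against saline, 1 member and 782 genes were called. DESeq2 called 3 and 2007, upper-quartile scaling 2 members (383 genes rose and 396 fell), counts divided by 4 gave 2, only the 2 groups 0 and 9, the highest transcript 0 and 21, library totals only 411 genes (287 rose, 124 fell against 465 and 317), and the fit without saline replicates 2 and 3 called 2 and 109. Leaving out 1 library gave 0 to 2 members and 6 to 1303 genes. For Ang II against saline, where 0 genes were called, DESeq2 called 57, only the 2 groups 1, the highest transcript 3, the fit without saline replicates 2 and 3 called 11, and leaving out 1 library 0 to 7. The cause was not tested.

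Signs turned for few single genes. Without saline replicate 2, Ang II minus saline was 0.26 for Vwf, 0.39 for Plvap and 0.18 for Edn1, the highest values with 1 library left out, where the lowest were -0.61, -2.1 and -0.91. Without saline replicates 2 and 3 it was 0.19, 0.42 and 0.38 for these and -0.04 for Egfl7, and Lyve1 was at 0.05 for NaBu minus saline. With the highest transcript only, Angpt1 was at -0.26 for NaBu minus Ang II. A replicate block of the label numbers, possible for saline and Ang II only, called 0 members and 0 genes with a median of 0.12. Same-numbered libraries did not deviate together (correlations -0.06, -0.07 and -0.03), so the numbers were not taken as a pairing. With 3 libraries per group and a common coefficient of variation of 0.256, small differences are not detectable.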
